A study of Mus musculus with 8 samples.

Results

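The 8 genes described here handle cholesterol and its esters: Scarb1, Hmgcs1, Sqle, Srebf1, Srebf2, Pparg, Abca1 and Lipe, out of 21631 protein-coding genes on chromosomes 1 to 19 and X. For each gene, the accessible regions that overlapped its body or the 50 kb on either side were taken from 8 ATAC-seq peak lists of mouse granulosa cells, the somatic cells around the oocyte. ATAC-seq uses the Tn5 transposase to cut open chromatin, so a peak marks sequence that was accessible. Merging the 4 lists of each experiment gave 117 such regions of 81943 in the LH experiment and 129 of 91502 in the PR experiment.

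All mice were 21 days old, all were primed with 5 IU of eCG (also called PMSG), and each replicate pooled cells of 2 to 3 mice, with 2 replicates per group. The LH experiment used wild-type CBA x C57BL/6 F1 mice, taken 46 h after eCG (the libraries titled PMSG) or 6 h after a further 5 IU of hCG, a stand-in for the surge of luteinising hormone (titled hCG). The PR experiment used the strain C.129S7(B6)-Pgrtm1Bwo/OmcJ, with wild-type (WT) mice and mice knocked out for Pgr, the progesterone receptor gene (KO), both after hCG. In the LH experiment the time tag runs against the title, with 0 h on the hCG and 6 h on the PMSG libraries. The titles match the source names (peri-ovulatory and pre-ovulatory) and were followed, so each direction between hCG and PMSG rests on the titles. The PR libraries carry a pre-ovulatory source name beside a 6 h tag, and their titles name no hCG. Their post-hCG state is taken here from the tag, against the source name.

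Granulosa cells need cholesterol to make progesterone once the surge has turned them towards luteal cells. They take it from high-density lipoprotein through the receptor SR-BI (Scarb1), release it from stored esters with hormone-sensitive lipase (Lipe), or build it from acetyl-CoA. Hmgcs1 encodes the synthase that makes HMG-CoA, and Sqle encodes squalene epoxidase, a late controlled step. The membrane-bound factors SREBP-2 (Srebf2) and SREBP-1 (Srebf1) switch on synthesis and lipid genes when sterols are low. LXR receptors, which sense oxysterols, switch on the cholesterol exporter Abca1 and the SREBP-1c form of Srebf1. PPARγ (Pparg) is a nuclear receptor for fatty acid ligands.

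Promoter sequences (250 bases before to 50 after a start site, RefSeq, GRCm38.p6) matched 6 of the 8 genes with 11 start sites. Scarb1 and Sqle were not in that table, and the gene end that carried an interval was used for them. The 4 printed here lie under the start intervals that the results turn on: the downstream start of Pparg, from which its γ2 form is made, the starts of Hmgcs1 and Abca1, and the downstream start of Srebf1, that of the SREBP-1c form. Each is written 5′ to 3′ on the strand of its gene. Capitals mark matches, on either strand, to the sterol element core TCACNCCAC, the NF-Y box CCAAT, the C/EBP site TTGCNNAA or a relaxed LXR-type pair, 2 copies of TNACC separated by 5 bases. The last of these was chosen after the promoters had been seen.
Pparg downstream start, chr6:115421816-115422115, + strand: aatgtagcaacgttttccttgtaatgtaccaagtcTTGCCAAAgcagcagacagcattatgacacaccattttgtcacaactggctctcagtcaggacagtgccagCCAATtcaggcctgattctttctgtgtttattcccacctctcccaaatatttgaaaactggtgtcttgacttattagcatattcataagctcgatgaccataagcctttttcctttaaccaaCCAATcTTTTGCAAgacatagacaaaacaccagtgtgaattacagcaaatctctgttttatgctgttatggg
Hmgcs1 start, chr13:119690101-119690400, + strand: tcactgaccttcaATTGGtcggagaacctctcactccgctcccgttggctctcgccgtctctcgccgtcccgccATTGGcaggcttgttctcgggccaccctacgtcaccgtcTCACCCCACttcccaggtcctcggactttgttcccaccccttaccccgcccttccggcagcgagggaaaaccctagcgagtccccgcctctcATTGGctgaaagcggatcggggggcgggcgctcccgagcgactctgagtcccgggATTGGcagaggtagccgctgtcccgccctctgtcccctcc
Srebf1 downstream start, chr11:60210422-60210721, - strand: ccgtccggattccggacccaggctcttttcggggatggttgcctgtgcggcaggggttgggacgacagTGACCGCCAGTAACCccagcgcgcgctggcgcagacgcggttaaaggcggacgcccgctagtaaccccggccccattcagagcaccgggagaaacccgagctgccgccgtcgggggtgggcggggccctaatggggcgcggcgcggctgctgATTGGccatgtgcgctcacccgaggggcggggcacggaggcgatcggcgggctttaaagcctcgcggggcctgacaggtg
Abca1 start, chr4:53159846-53160145, - strand: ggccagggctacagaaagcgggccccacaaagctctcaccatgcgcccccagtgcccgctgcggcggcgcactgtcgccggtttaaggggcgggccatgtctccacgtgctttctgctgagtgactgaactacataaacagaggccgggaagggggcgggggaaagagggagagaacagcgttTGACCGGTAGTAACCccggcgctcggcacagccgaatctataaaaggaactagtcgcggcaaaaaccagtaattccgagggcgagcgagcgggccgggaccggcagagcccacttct

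The Hmgcs1 promoter held 1 match to the sterol element core, at -137 to -129 from the start (the first transcribed base is 1, the base before it -1), and 4 NF-Y boxes. That core occurred in 1.25% of 32585 promoters of this length, and NF-Y boxes in 37.6%. The LXR-type pair occurred in 0.724% of them, and among the 11 promoters it was found at Abca1 (-67 to -53) and at the downstream start of Srebf1 (-182 to -168). The downstream Pparg promoter held 2 NF-Y boxes and 2 matches to the C/EBP site, which occurs in 10.9% of promoters. No match to a relaxed progesterone receptor element (0.479% of promoters), the NR5A site CAAGGTCA (1.53%) or the AP-1 site TGANTCA (7.85%) was found in the 11 promoters. The strings in capitals do not overlap each other.

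The lists give no read numbers, so depth is unknown and a missing peak can reflect sensitivity. Lists held 55654 to 84313 intervals, with median widths of 394 to 552 bp, and the WT lists were the longest. Bulk chromatin also cannot tell fewer cells with an open site from less opening per cell. Fshr and Foxl2, which define granulosa cells, had an interval at their start in 8 of 8 libraries. Amhr2 and Cyp19a1 had one there in 7 libraries, and Inha and Nr5a2 in 0. Within 1 kb of a start or gene end, all 6 granulosa markers had one in 8 libraries. Of the markers of other cells, Insl3, Ptprc and Pecam1 had none in any library. Cyp17a1 (PMSG replicate 2 and WT replicate 1), Cd68 and Zp3 had one in 2 libraries each, while Cdh5 and Gdf9 (a gene that abuts Uqcrq) had one in 8. The Cd68 intervals were those of the 2 hCG libraries, and the part of other cells in the results was not tested.

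All 8 members had an accessible start in all 8 libraries, as did 54.8% of 21631 coding genes. One start interval per library was present in all 8 lists at Scarb1, Hmgcs1, Srebf2, Abca1 and Sqle, at both starts of Lipe, at 2 of 3 starts of Srebf1 and at the upstream pair of Pparg starts, which share 1 interval. Of 21045 start sites of coding genes, between 55.7% and 58.8% lay in an interval of a given list. To compare ranks, each list was cut to its 55654 intervals with the highest fold (column 7, the authors' enrichment over background), and the percentile of an interval among these was used.

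Sqle and Hmgcs1, the synthesis enzymes, had high-ranking starts that stood lower in the hCG than in the PMSG lists. At Sqle the percentile was 87.0 and 81.7 in hCG, 94.7 and 94.0 in PMSG, 82.2 and 86.6 in WT, and 80.3 and 95.7 in KO. At Hmgcs1 it was 79.2 and 77.4 in hCG, 83.7 and 87.3 in PMSG, 74.6 and 79.8 in WT, and 72.4 and 80.4 in KO. The groups did not overlap between hCG and PMSG at these genes, but did between WT and KO. Scarb1 had a start of lower rank, at 36.4 and 33.2 in hCG, 55.4 and 61.3 in PMSG, 38.6 and 32.0 in WT, and 35.3 and 51.4 in KO. At Srebf2 the values were 68.8 and 67.9 in hCG, 85.0 and 83.5 in PMSG, 66.4 and 72.9 in WT, and 61.1 and 84.7 in KO.

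Such an order was common among all genes. Of the 9 distinct member start intervals present in the 4 shortened LH lists, 8 ranked higher in both PMSG lists than in both hCG lists and 0 the other way. Over 11236 coding starts the shares were 63.3% and 10.7%. The exception was Abca1, where PMSG spanned 50.1 to 64.8 around the hCG values of 59.0 and 53.9. In the PR experiment, 1 of 9 member starts (Abca1) ranked higher in both WT lists, against 4.24% of 11027 starts. A further 3 of the 9 (the middle start of Srebf1, the upstream start of Pparg and the stronger start of Lipe) ranked higher in both KO lists, against 22.9%. The comparison was chosen after the values had been seen.

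**Figure D1:**
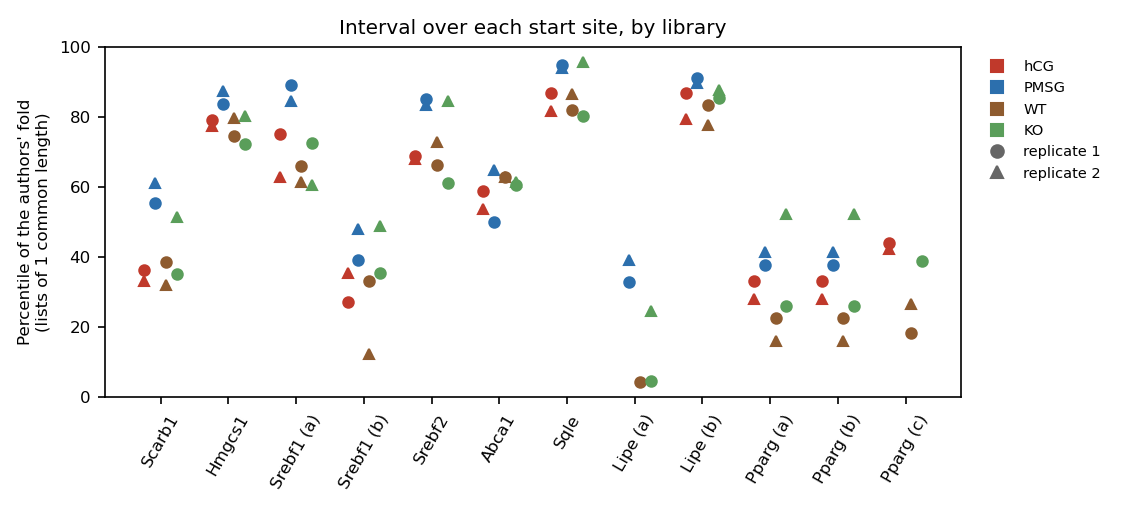
Percentile of the authors' fold (y axis) of the interval over each member start site (x axis) in lists cut to 1 common length; color gives the group and symbol the replicate, and a missing point means no interval in the shortened list. Letters order the starts of a gene by coordinate: Srebf1 (a) and Lipe (a) are the downstream starts, Pparg (a) and (b) share an interval, and Pparg (c) is its downstream start, with no PMSG point.

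The LH comparison sets granulosa cells before and after the ovulatory stimulus side by side. A region was called hCG-only if both hCG and neither PMSG library held it, and PMSG-only in the reverse case. The members' windows held 15 hCG-only regions (12.8% of 117, against 17.7% of all regions). PMSG-only regions also numbered 15 (12.8%, against 10.4%), while 63 (53.8%, against 49.9%) were held by all 4 libraries. In lists cut to the same number of intervals these were 13 hCG-only (11.7%, against 15.3%) and 20 PMSG-only regions (18.0%, against 13.3%). The balance differed from gene to gene: 10 of the 15 hCG-only regions lay at Hmgcs1, Pparg and Abca1, and 7 of the 15 PMSG-only regions at Abca1. Only at Hmgcs1, with 30.8%, was the hCG-only share above the 17.7% of all regions. It lay below at Abca1 (3 of 18) and Pparg (3 of 20). In lists of equal number it was 16.7% at Abca1 and at Pparg, against 15.3%. The PMSG-only share at Abca1 was 38.9%, against 10.4%. Single regions were described and not tested. Of the 15 hCG-only regions 10 (66.7%, against 40.9% of all hCG-only regions) were also held by all 4 PR libraries, taken after hCG by their time tag. Of the 15 PMSG-only regions 0 were (against 13.6%).

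**Figure D2:**
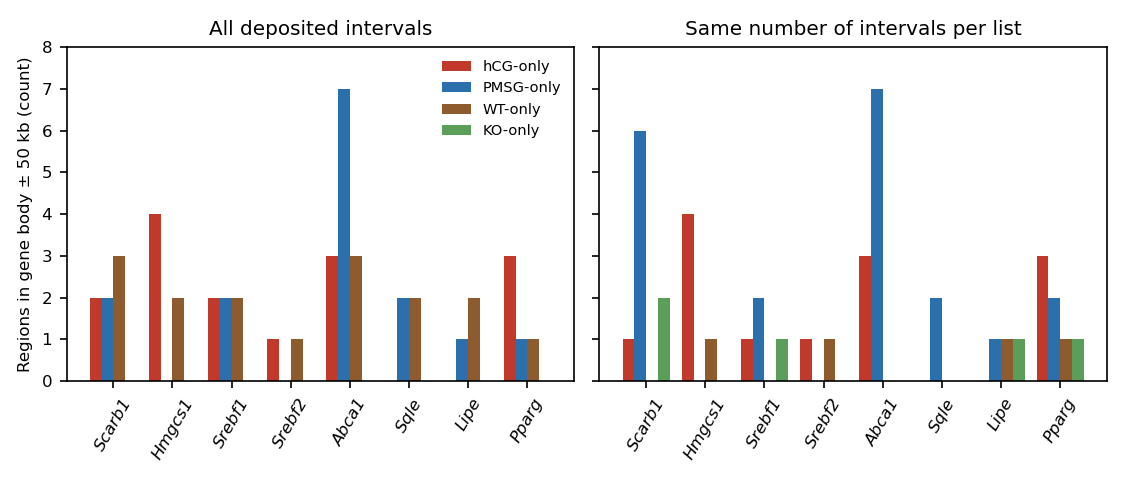
Number of group-only regions (y axis) in the body and 50 kb flanks of each gene (x axis), with all deposited intervals (left) and with the same number of intervals per list in each experiment (right). The 7 PMSG-only regions of Abca1 and the 4 hCG-only regions of Hmgcs1 stand in both panels, while the Scarb1 PMSG-only count goes from 2 to 6 and most WT-only regions go.

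Of the 13 Hmgcs1 regions, 4 belonged to the hCG-only class (30.8%, against 17.7% of all regions) and 0 to the opposite one. The counts were the same in lists of equal number (36.4% of 11, against 15.3%). Among the top 20000 intervals per list, 1 of each kind was found among 4 regions. Of 21631 coding genes, 7.65% had 4 or more hCG-only regions in such a window, and 4.69% in lists of equal number. The Hmgcs1 window covered 8.12 and 7.40 kb of open sequence in the hCG libraries and 3.72 and 3.75 kb in the PMSG libraries. The strongest of the 4 hCG-only regions lay upstream of the gene, on chromosome 13 at 119681070 to 119681642. It lay 8.71 kb before the gene and inside no coding gene. The deposited fold was 14.4 and 14.0 after hCG, at percentiles 91.3 and 88.4 of their full lists, and no interval in either PMSG library. In the PR lists it had a fold of 14.1 and 15.01 in WT (percentiles 87.5 and 87.2) and no interval in either KO library. Its fold in each hCG library was above that of the Hmgcs1 start itself (12.6 and 12.5).

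This upstream region was thus held by the 4 post-hCG libraries with an intact Pgr gene and by none of the other 4. Of all 14473 hCG-only regions, 2375 (16.4%) were held by both WT and neither KO library, and of the 15 around the members 3 were. Averaged over the hCG and WT lists, the upstream Hmgcs1 region stood at percentile 88.6, where the median of the 2375 was 33.1. With itself counted, 2 of the 2375 ranked as high. The other 2 member regions of this kind, near Pparg and Srebf2, stood at 67.8 and 59.6, where 4.08% and 10.1% of the 2375 ranked as high. The Hmgcs1 region was singled out after its values had been seen. The other 3 hCG-only regions of Hmgcs1 were held by both WT and at least 1 KO library. They lay inside Ccl28 (fold 8.35 and 7.64 in hCG), between Ccl28 and Hmgcs1 (6.25 and 5.64) and inside Nim1k (7.19 and 8.15).

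**Figure D3:**
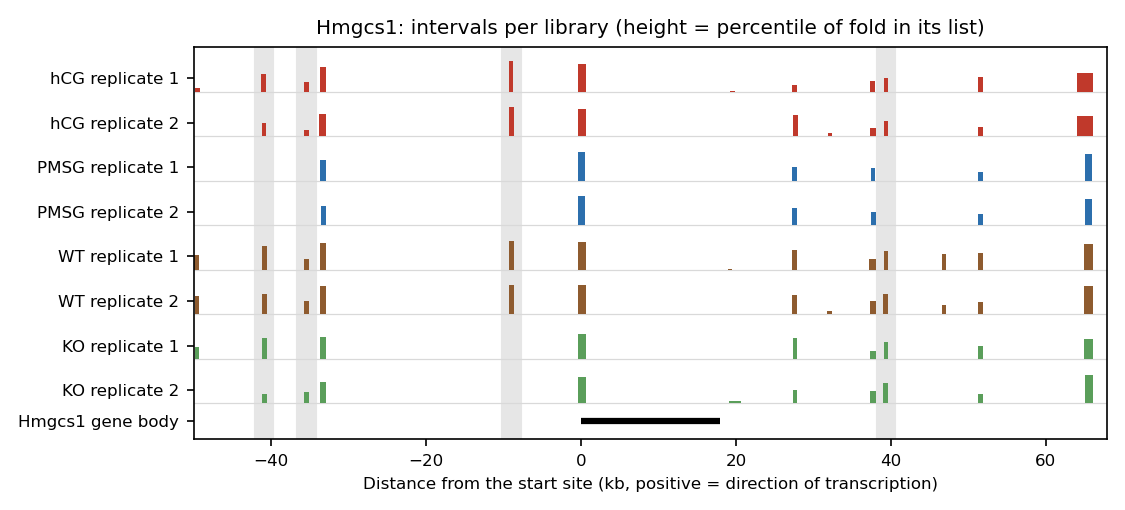
Intervals around Hmgcs1 by library, with distance from the start site in kb on the x axis; height is the percentile of the interval's fold in its full list, intervals are drawn at least 0.6 kb wide, and grey bands mark hCG-only regions. The band about 9 kb upstream has an interval in both hCG and both WT rows and in no PMSG or KO row, while the start has one in all 8.

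Sqle, the other synthesis enzyme, had 12 regions, of which 0 were hCG-only and 2 PMSG-only, both on the side of the gene end with the start interval. Without PMSG replicate 2 there were 2 hCG-only regions, and among the top 20000 intervals 1. The higher-ranking PMSG-only region, on chromosome 15 at 59291591 to 59291747, had a fold of 8.38 and 12.2 in PMSG and 9.07 in WT replicate 1. It had no interval in the other 5 libraries. Covered length at Sqle was 4.93 and 5.10 kb in hCG against 4.21 and 4.92 kb in PMSG, a difference of 0.452 kb. Without PMSG replicate 1 it was 0.096 kb, and the groups overlapped in lists of equal number and at a −log10 q of 20 or more (exact permutation p = 0.667 each).

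Srebf2 had 10 regions, of which 7 were held by all 4 LH libraries, 1 was hCG-only and 0 were PMSG-only. The hCG-only count was 2 of 10 without hCG replicate 1, and 2 of 9 at a −log10 q of 20 or more. The hCG-only region of the full lists lay 46.9 kb beyond the gene, at the start of 1500009C09Rik (chromosome 15, 82252284 to 82252594). It had a fold of 9.80 and 9.03 in hCG, 7.64 and 11.5 in WT, and no interval in PMSG or KO. Inside Srebf2 lies the hairpin of Mir33, a microRNA known to repress Abca1, and 0 of 8 lists held an interval over it.

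Srebf1 had 2 regions of each kind among 16, none inside the gene. In lists of equal number Srebf1 had 1 hCG-only and 2 PMSG-only of 14 regions. At a −log10 q of 20 or more it had 1 of each kind among 12. Its best hCG-only region lay in Rai1 (chromosome 11, 60184864 to 60186102), with a fold of 5.52 and 5.47 in hCG, 4.82 and 4.83 in WT, and 4.94 and 4.01 in KO. The best PMSG-only one lay in Tom1l2 (60266025 to 60266213), with a fold of 6.90 and 7.71 in PMSG and 4.69 in WT replicate 1. The start of the SREBP-1c form was wider after hCG, at 774 and 849 bp against 507 and 551 bp in PMSG, 856 and 806 bp in WT, and 1033 and 693 bp in KO. All 6 post-hCG intervals were wider than both PMSG intervals there. The middle start showed the same order, with 968 and 966 bp in hCG and 663 and 556 bp in PMSG. Of all regions held by all 4 LH libraries, 64.2% were wider in both hCG libraries. A width ratio at least as high as at the SREBP-1c start was found in 19.6% of them, and as at the middle start in 17.6%.

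At Pparg a start site was called accessible after hCG and not before. The region over its downstream start (chromosome 6, 115421759 to 115422114) was hCG-only, with a fold of 8.49 and 8.55 in hCG and none in PMSG. It was also held after hCG in the other strain, with 6.96 and 8.06 in WT and 7.59 and 6.08 in KO. The KO replicate 2 interval was 159 bp and did not reach the start base. The stretch is nearly that of the Pparg promoter printed above. The upstream start was instead open in all 8 libraries, at 1687 and 1748 bp in hCG and 1682 and 1650 bp in PMSG.

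Of 20 Pparg regions, 13 lay inside the gene, 3 were hCG-only and 1 was PMSG-only. The highest-ranking hCG-only region, 44.6 kb before the gene (115315866 to 115316287), had a fold of 13.6 and 13.2 in hCG, a lower 6.93 and 8.73 in WT, and no interval in PMSG or KO. The remaining one, inside the gene at 115440412 to 115440920, was weak (5.22 and 4.93 in hCG) and was present in all 4 PR libraries. The PMSG-only region inside the gene (115383912 to 115384198) had a fold of 5.42 and 5.94, and was held by WT replicate 1 and KO replicate 2. Covered length was 5.99 and 6.20 kb in PMSG and 10.5 and 10.4 kb in hCG, a difference of 4.36 kb. With equal numbers of intervals the difference was 2.91 kb, below the 3.57 kb of Hmgcs1.

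Of the 11 Pparg regions held by all 4 LH libraries, 10 were wider in both hCG libraries and 0 in both PMSG libraries. One inside the gene (115390145 to 115390845) measured 652 and 701 bp in hCG and 166 and 212 bp in PMSG, a ratio of 3.58. One just past the gene (115493060 to 115493955) measured 894 and 896 bp against 281 and 217 bp, a ratio of 3.59. Of the 40922 regions held by all 4 LH libraries, 1.02% and 0.992% had ratios at least as high. Both were chosen after their values had been seen, as the highest ratios among the members. Around all members, 46 of 63 such regions were wider in both hCG libraries (73.0%, against 64.2% of all) and 4 in both PMSG libraries (6.35%, against 11.7%). The median width ratio was 1.19 for the members and 1.17 over all. In lists of equal number, 39 of 55 (against 65.8%) were wider in both hCG libraries and 4 (against 10.4%) in both PMSG libraries.

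**Figure D4:**
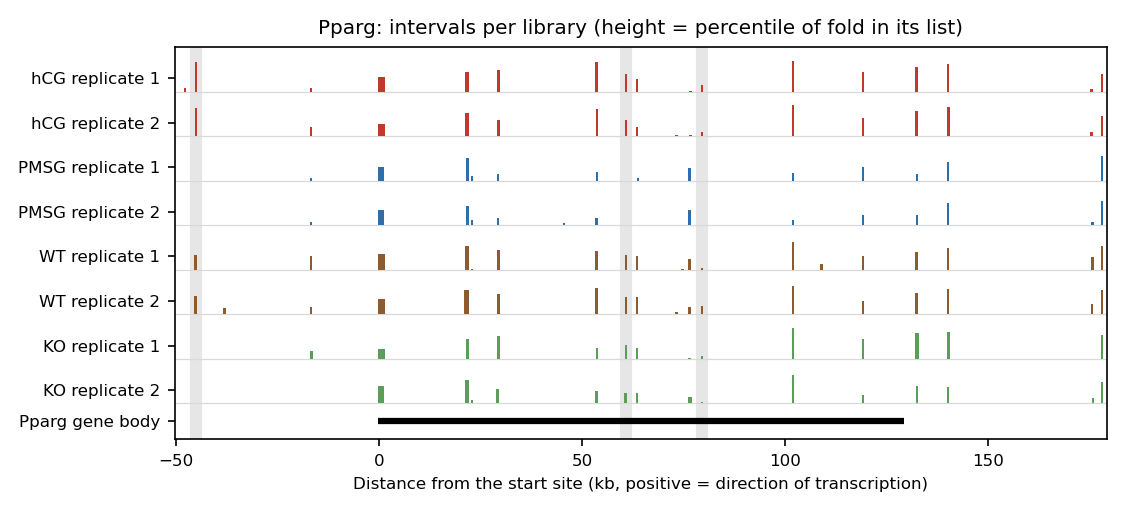
Intervals around Pparg by library, drawn as for Hmgcs1, with distance from the most upstream start in kb; grey bands mark hCG-only regions. The band about 61 kb into the gene is the downstream start, with intervals in all hCG, WT and KO rows and in no PMSG row.

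At Abca1, PMSG-only regions outnumbered hCG-only ones in the full lists, but not among stronger intervals. Among its 18 regions 7 were PMSG-only (38.9%, against 10.4% of all regions) and 3 were hCG-only, with the same counts in lists of equal number. With a −log10 q of 20 or more, 4 of each kind were found among 17 regions, and among the top 20000 intervals per list 0 PMSG-only and 1 hCG-only among 6. Of the 7, 6 overlapped the gene body, and the other lay 8.57 kb past its end in Nipsnap3b (53021913 to 53022218, fold 3.57 and 3.39). Of 21631 coding genes, 0.199% had 7 or more PMSG-only regions in the same kind of window, although at 229.2 kb the Abca1 window is a long one. That cut is the count of Abca1 itself, the member with the most PMSG-only regions, so the share is no test. The 2 strongest had a fold of 9.65 and 7.90 (chromosome 4, 53115425 to 53115772) and of 7.82 and 9.16 (53030525 to 53031010) in PMSG. The other 4 in the body began at 53032122, 53091050, 53095114 and 53111883 and had a fold of 4.36 to 7.20, at mean percentiles of 7.62 to 24.7.

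The 6 PMSG-only regions in the Abca1 body were held in part by the post-hCG libraries of the other strain. WT replicate 1 held all 6, with a fold of 3.59 to 6.72. WT replicate 2 held 3 of them, and KO replicates 1 and 2 held 2 each. The region in Nipsnap3b was held by none. Around all 8 genes, WT replicate 1 held 13 of the 15 PMSG-only regions (86.7%, against 76.6% of all 8511), WT replicate 2 held 6, KO replicate 1 held 2 and KO replicate 2 held 3 (45.6%, 21.5% and 34.7% of all). The libraries of 1 group thus differed in how many they held.

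Other stretches of Abca1 had intervals in all 6 post-hCG libraries and in neither PMSG library. The one 12.2 kb after the start (53147332 to 53148068) had a fold of 10.6 and 9.92 in hCG, 10.3 and 10.2 in WT, and 8.98 and 7.04 in KO. The one 37.8 kb after the start (53121757 to 53122499) had 7.59 and 8.39, 7.91 and 9.64, and 6.19 and 5.79. The remaining hCG-only region, 42.8 kb before the gene (53202785 to 53203110, fold 8.03 and 6.36), was held besides by WT replicate 2 alone.

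The Abca1 start differed in shape. In the 6 post-hCG libraries it was 1 interval of 1564 to 1728 bp. In the PMSG libraries it was 2 intervals, of 409 and 516 bp in replicate 1 with a gap of 583 bp, and of 458 and 596 bp in replicate 2 with a gap of 470 bp. The interval over the start base, with the LXR-type pair, was the 516 and 596 bp one, so that the gap fell within the gene. Of the 63 regions around the members held by all 4 LH libraries this was the 1 split in both PMSG and in neither hCG library, which 1.42% of all such regions were. None was split in both hCG libraries alone (against 0.0513%), and none of 75 in both WT (against 0.861%) or both KO libraries alone (against 0.146%). It was singled out after its values had been seen.

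**Figure D5:**
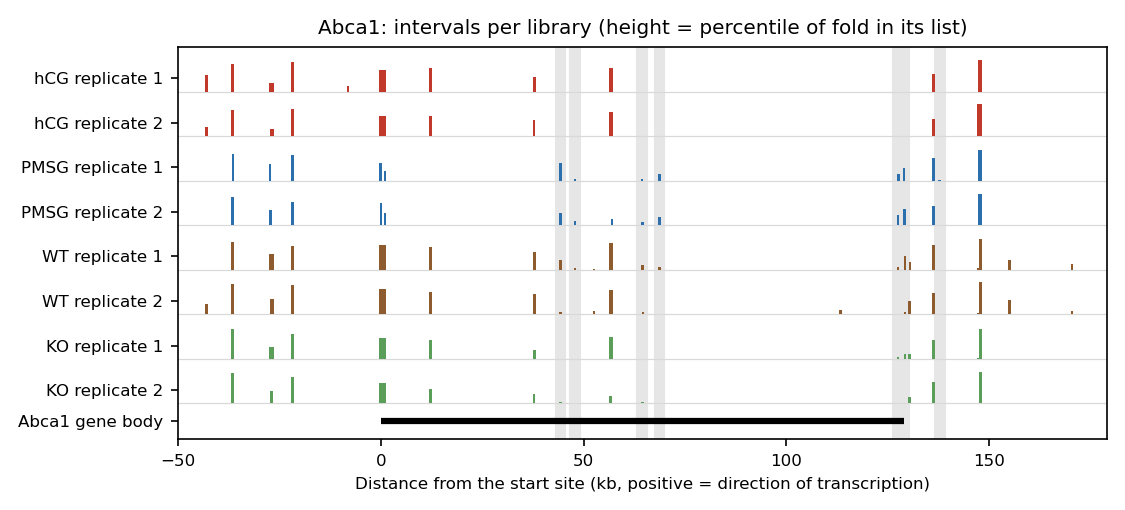
Intervals around Abca1 by library, drawn as for Hmgcs1; grey bands mark PMSG-only regions. Between the start and the far end of the gene the bands are filled in both PMSG rows and WT replicate 1 and in part in the other PR rows, while both hCG rows are empty there.

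Scarb1, the uptake receptor, had 19 regions, of which 2 were hCG-only (4 without PMSG replicate 2) and 2 PMSG-only (4 without hCG replicate 1). The best hCG-only region lay 27.1 kb beyond the gene end that carries the start interval (chromosome 5, 125368237 to 125368869), with a fold of 9.33 and 9.81 in hCG, 9.78 and 10.9 in WT, and 9.31 and 6.81 in KO. All 6 post-hCG libraries held it. The hCG-only region inside the gene (125303057 to 125303387) was weak, with 3.62 and 3.29, and was lost in lists of equal number. The PMSG-only regions, inside the gene (125315133 to 125315425, fold 6.13 and 5.55) and 6.20 kb below its lower end (125270702 to 125270888, 5.91 and 4.87), were both held by both WT and neither KO library. With the same number of intervals per list Scarb1 had 1 hCG-only and 6 PMSG-only regions, of which 4 were held by an hCG library in the full lists.

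Covered length at Scarb1 also depended on the list length. It was 12.4 ± 0.939 kb in hCG and 9.52 ± 0.470 kb in PMSG (SD, n = 2), but with equal numbers of intervals the difference turned to -1.9995 kb. The start interval was wider in hCG, at 1429 and 1390 bp against 1033 and 1035 bp in PMSG, while it ranked lower. Of all regions held by all 4 LH libraries, 28.6% had a width ratio at least as high. Lipe had 9 regions, of which 0 were hCG-only (1 without PMSG replicate 2) and 1 PMSG-only (2 without hCG replicate 1), the latter 49.1 kb from the gene (chromosome 7, 25447549 to 25447701) with a fold of 6.90 and 8.76 in PMSG and 7.95 in WT replicate 1. Its downstream start had a fold of 3.85 and 4.33 in hCG, 7.65 and 8.59 in PMSG, 6.06 and 4.96 in WT, and 4.38 and 5.52 in KO. In lists of 1 common length neither hCG list held it, while the PMSG lists held it at percentiles 33.0 and 39.2. It is not among the 9 starts counted above, where most coding starts also ranked higher in PMSG.

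In 7 of the 8 windows both hCG libraries covered more sequence than both PMSG libraries, as in 70.4% of the windows of all 21631 coding genes. In 0 of 8 both PMSG libraries covered more (against 6.02%). With equal numbers of intervals, 5 of 8 were covered more in both hCG libraries (against 64.9%), and Scarb1 and Lipe in both PMSG libraries (against 8.2%). The exception in the full lists was Lipe (4.52 and 3.87 kb against 4.02 and 4.23 kb). Summed over the 8 windows, coverage was 63.9 kb in hCG and 45.7 kb in PMSG, a ratio of 1.40, where the whole lists gave 1.29. The exact two-sided permutation p was 0.333 for each of the 7 genes, the smallest that 2 against 2 allow, and 0.356 after Benjamini-Hochberg adjustment over 16 tests. It was 1 for Lipe.

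The PR comparison sets WT against KO cells after hCG. Around the members stood 16 WT-only regions (12.4% of 129, against 12.1% of all regions) and 0 KO-only regions (against 0.0842%). With the same number of intervals per list 4 WT-only (4.08%, against 4.25%) and 5 KO-only regions (5.10%, against 4.16%) were left, and the 5 were each held by a WT library in the full lists. These shares are close to the background in both settings. Among the top 20000 intervals per list, 3 WT-only (against 2.23%) and 1 KO-only (against 1.98%) of 32 regions were called, beside 8 hCG-only (against 17.1%) and 4 PMSG-only (against 16%) of 39. With a −log10 q of 20 or more, 12 of 115 were WT-only (against 12%) and 0 KO-only (against 0.0507%), while 20 of 105 were hCG-only (against 19.3%) and 12 PMSG-only (against 10.4%). With lists shortened by −log10 q, a setting added after seeing the data, 3 of 102 were WT-only (against 2.78%), 0 KO-only (against 2.5%), and of 111, 15 were hCG-only (against 15.6%) and 16 PMSG-only (against 13.4%). All 8 genes had at least 1 WT-only region, with 3 each at Scarb1 and Abca1, 2 each at Hmgcs1, Srebf1, Sqle and Lipe, and 1 each at Srebf2 and Pparg. Of all coding gene windows 50.9% held at least 1. In lists of equal number Scarb1, Srebf1, Abca1 and Sqle had 0 and the other 4 had 1 each, against 21.0% of all windows with at least 1. These counts moved with single libraries: without WT replicate 1 there were 4 at Pparg, 3 at Srebf2 and 5 at Abca1, without WT replicate 2 there were 3, 2 and 5, without KO replicate 1 there were 4 each at Sqle and Lipe, and without KO replicate 2 there were 4 at Hmgcs1.

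The WT-only regions left in lists of equal number included the upstream Hmgcs1 region, the region at the 1500009C09Rik start past Srebf2 and the region 44.8 kb before Pparg. These 3 are the regions described above as hCG-only. The median percentile over the 16 WT-only regions was 22.4, against 28.1 for all 11048.

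Inside gene bodies the WT-only regions were 2 in Scarb1 and 1 in Abca1. Those of Scarb1 had a fold of 2.24 and 1.97 (125308500 to 125308833) and 4.42 and 2.53 (125315056 to 125315459), and that of Abca1 2.61 and 3.93 (53107297 to 53107477). Their mean percentiles were 0.446, 7.72 and 5.37. Outside the bodies, the best-ranking WT-only region was in Tom1l2 for Srebf1 (60244670 to 60244840, 5.71 and 5.95 in WT), 25.8 kb past the end of Abca1 (53004747 to 53005022, 5.71 and 6.94) and 33.9 kb below Sqle (59280968 to 59281200, 4.56 and 4.25). For Scarb1 it was the one 6.23 kb below the gene (125270728 to 125270861, 2.92 and 2.93). The Tom1l2 and Sqle regions were held by all 4 LH libraries.

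Regions held by all 4 PR libraries were wider in both WT libraries at 29 of 75 (38.7%, against 34.7% of all) and in both KO libraries at 3 (4%, against 5.9%). In lists of equal number these were 25 of 63 (against 34.9%) and 3 (against 6.21%). The Abca1 start was among the 3, at 1728 and 1620 bp in KO and 1619 and 1564 bp in WT. The downstream Lipe start was wider in WT, at 640 and 632 bp against 325 and 330 bp. Covered length was higher in both WT libraries in all 8 windows, against 57% of all coding gene windows, and in both KO libraries in 0 (against 0.795%). With equal numbers of intervals it was higher in both WT libraries in 3 windows (against 24%) and in both KO libraries in 1, that of Scarb1 (against 9.93%). In the full lists the 8 windows summed to 71.0 kb in WT against 56.4 kb in KO, a ratio of 1.26 where the whole lists gave 1.24. The exact permutation p was 0.333 for each gene (adjusted 0.356). With equal numbers of intervals the difference turned at Scarb1 (-2.28 kb) and Srebf1 (-0.3745 kb).

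Another 35 genes of the pathway, listed by textbook role, were read the same way. Windows of these genes held 60 hCG-only (18.8% of 320 regions, against 17.7% of all) and 22 PMSG-only regions (6.88%, against 10.4%). In lists of equal number these were 41 (13.9% of 294, against 15.3%) and 30 (10.2%, against 13.3%), so that the hCG-only share lay above the background in one setting and below it in the other. In the PR experiment they held 43 WT-only (12.4% of 347, against 12.1%) and 0 KO-only regions, and 10 (3.68% of 272, against 4.25%) and 17 (6.25%, against 4.16%) in lists of equal number. Start intervals were present in all 8 libraries for 30 of the 35 (85.7%, against 54.8% of all coding genes).

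The 14 synthesis genes accounted for 25 of the hCG-only regions (19.7% of their 127, against 17.7%) and 9 of the PMSG-only regions (7.09%, against 10.4%). In lists of equal number they had 19 (16.4% of 116, against 15.3%) and 12 (10.3%, against 13.3%). In the full lists Fdft1 (squalene synthase) had 6 and 0, Sc5d 3 and 0, Lss and Cyp51 2 and 0 each, Mvk and Dhcr7 2 and 1 each, and Msmo1 2 and 4. Lists of equal number gave Fdft1 3 and 0, Sc5d and Lss 1 and 0 each, Cyp51 and Dhcr7 2 and 0 each, Mvk 2 and 2, and Msmo1 1 and 4. The 8 uptake and lipoprotein genes had 14 and 8 (19.2% and 11.0% of 73, against 17.7% and 10.4%). In lists of equal number they had 9 and 9 (13.4% of 67 each, against 15.3% and 13.3%). Of these genes Vldlr had 4 and 1, Lrp8 3 and 0, Npc2 2 and 0, and Cd36 0 and 5 in the full lists. With lists of equal number Vldlr had 3 and 1, Lrp8 1 and 1, Npc2 1 and 0, and Cd36 0 and 5. The 5 genes that control SREBP processing had 10 (22.2% of 45, against 17.7%) and 0, with 5 at Scap, 3 at Insig1 and 2 at Mbtps1. In lists of equal number these were 7 (17.1% of 41, against 15.3%) and 1 (2.44%, against 13.3%), with 1 hCG-only region at Insig1. The 4 efflux and LXR genes had 3 and 3 (12% of 25 each, against 17.7% and 10.4%), the latter all at Abcg5. The counts were the same in lists of equal number (against 15.3% and 13.3%). The 4 ester storage genes had 8 and 2 (16% and 4% of 50, against 17.7% and 10.4%), with Soat1 at 3 and 1, Pnpla2 at 2 and 1, and Nceh1 at 2 and 0. In lists of equal number these were 3 (6.67% of 45, against 15.3%) and 5 (11.1%, against 13.3%). Both shares lay below those of all regions. Soat1 then had 1 and 2 and Pnpla2 0 and 2. Abca1 and Cd36 had the highest PMSG-only counts of the 8 members and 35 listed genes in the full lists, at 7 and 5. WT-only regions numbered 4 at Cd36 and Mbtps1, 3 at Lss, Lrp8, Scap and Insig1, and 2 at Sc5d, Vldlr, Nr1h2 and Pnpla2. Each of these genes had 0 or 1 in lists of equal number.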

How the data were processed

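The authors deposited 1 peak list per library in the 10-column narrowPeak layout. Bowtie2, MACS2 and mm10 are named in the submitters' processing notes; versions, filters, duplicate handling and any Tn5 shift are not given in the sources used here. Peak names in the PR lists mention filtering and marked duplicates, and those in the LH lists do not. Column 7 of the deposited lists is a fold enrichment over background, a ratio within a library. Columns 8 and 9 are deposited as −log10 p and q and were 10 or more throughout in column 9. The deposited score of column 5 was not used.

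Summits of 1 interval were counted once, with the highest fold. Intervals on chromosomes 1 to 19 and X were merged within an experiment if they shared 1 bp, with windows from RefSeq genes of GRCm38.p6, the assembly behind mm10. Groups came from titles. Equal-number lists kept 57992 (LH) and 55654 (PR) intervals by fold. Covered length was compared by an exact permutation test over samples (scipy 1.17.1, Python 3.11.15). Merging was tested on simulated data. The text names all 8 genes, each group-only region inside a body, the best-ranking one outside in each direction, and pathway genes with 2 or more such regions of an experiment. Some items that this rule names are not reported here. Members and lists were chosen with earlier results of these data known.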

Additional observations from a re-analysis of the deposited data

How the results depend on the processing

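Around the 8 genes, the top 20000 intervals per list gave 8 hCG-only, 4 PMSG-only, 3 WT-only and 1 KO-only regions. Gene bodies alone gave 5 hCG-only and 8 PMSG-only of 47 (10.6% and 17.0%) and 3 WT-only of 55 (5.45%), flanks of 10 kb 6 and 10 of 63 (9.52% and 15.9%) and 5 of 71 (7.04%), and flanks of 100 kb 29 and 19 of 187 (15.5% and 10.2%) and 26 of 204 (12.7%), where all regions gave 17.7%, 10.4% and 12.1%. With lists of equal number the PR counts were 4 WT-only and 5 KO-only, or 3 and 0 when lists were shortened by −log10 q, a setting added after seeing the data. For the pathway list, cut by fold to equal number, the PR counts were 10 and 17. Leaving out 1 library, which loosens the call, gave 23 to 27 WT-only regions (17.7% to 22.3%, against 16.0% to 25.1% of all regions) and 0 to 1 KO-only, the 27 without WT replicate 1 and the 25 without KO replicate 1, against 16 with all libraries. A −log10 q of 20 or more and a 50% overlap kept the counts over the 8 genes within 1.5 times.

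The difference in covered length changed sign in 7 cases (1 gene under 1 setting each). With equal numbers it was -1.9995 kb at Scarb1 and -0.23 kb at Lipe (hCG minus PMSG), and -2.28 kb at Scarb1 and -0.3745 kb at Srebf1 (WT minus KO). In the gene body alone it was -0.063 kb at Sqle (WT minus KO). Leaving out 1 library moved the Lipe difference between -0.25 kb (without hCG replicate 1) and 0.401 kb, with -0.0315 kb without PMSG replicate 1.

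Replicates of the same number were not paired by the labels. Their deviations in percentile correlated at 0.0401 over 40922 LH regions and -0.0485 over 48754 PR regions. With the replicate block, an exact sign-flip test, the Hmgcs1 difference stayed at 4.02 kb, and the smallest p of the 8 genes was 0.5, the lowest that 2 pairs allow. No gene passed 0.05 with or without the block.

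Read depth is unknown, so absence of an interval is limited by each list's sensitivity.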
